A study of Mus musculus with 3 samples.

Results

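The regions described here are the 500 bp that follow the annotated 3′ end of mouse genes, on the same strand as the gene. Of 25562 such regions, 756 were chosen by their own read counts: at least 20 sense reads downstream of the gene in at least 1 of 3 libraries. The rule took 819 genes, of which 62 were left out because they overlap another gene on the same strand, and LOC627695 because it alone held 82.5% to 89.5% of all downstream reads. In 406 of the 756 the minimum was met in all 3 libraries and in 210 in 1 library only. The label of expressed genes held for 740 of the 756, which had at least 20 exonic reads in 1 library. At the edge of the rule, the 49 regions whose largest count was 20 had medians of 14, 17 and 15 downstream reads at 0, 1 and 6 h, and the 39 regions left out with a largest count of 19 had 15, 19 and 16.

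The RNA came from cultured cells of the medial ganglionic eminence (MGE), the embryonic source of many cortical inhibitory interneurons. All 3 samples are labelled WT (wild type). The cells were taken from C57Bl/6 mice at embryonic day 14 and cultured for 10 days. All 3 groups were quieted overnight from day 9 with TTX (tetrodotoxin), which blocks voltage-gated sodium channels, together with AP-5, which blocks NMDA receptors. They then received 55 mM KCl for 0 h (the unstimulated control), 1 h or 6 h, with 1 library of ribosome-depleted, stranded total RNA for each time. The libraries held 8996897, 8549377 and 8579378 uniquely mapped reads and 2189394, 2457167 and 2480579 sense exonic reads. The interneuron genes Gad1 (2787, 3457 and 5361 exonic reads) and Lhx6 (838, 645 and 496) were present at every time. The excitatory neuron gene Slc17a7 had 0, 1 and 0 reads. A list of 7 excitatory neuron genes summed to 220, 160 and 181, of which Camk2a had 209, 150 and 175. A list of 13 MGE-derived interneuron genes summed to 9764, 10356 and 13944. The list of 8 astrocyte and radial glia genes summed to 5257, 6220 and 6942, so RNA of glial genes was present too. Of these 8, Gfap, Aqp4 and Slc1a2 were among the genes with a chosen region. Since each time is a single library, the variation among cultures is unknown and no p-values are printed. Each interval covers counting error only, with PCR copies kept. In bulk RNA, fewer cells of a type and less RNA per cell cannot be told apart.

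The 3′ end of most messenger RNAs is made by cleavage of the nascent transcript and addition of a poly(A) tail. The cleavage machinery recognises a hexamer in the RNA, most often AAUAAA or AUUAAA, a short distance before the cut, and many genes carry several such signals and so make 3′ untranslated regions (UTRs) of different length. Neurons are known for using distant signals and long 3′ UTRs, and RNA polymerase also goes on past the last cleavage site before it terminates, which leaves short-lived read-through RNA.

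In most of these genes the deposited model stopped short of the farthest matching end given by a later annotation. The last exon of 698 of the 756 genes could be matched to GENCODE M21 (build GRCm38). The match used the lengths of the last intron and of the exon before it. No coordinate was carried over from mm9, the build of the counts. Where several M21 transcripts matched, the longest last exon was taken as the M21 end. M21 may also hold shorter ends of the same gene. In 574 of the 698 (82.2%) the whole 500 bp lay in exons of the same gene in M21, in 81 (11.6%) a part did and in 43 (6.16%) none. Among 9104 other expressed genes without such overlap, 8614 were matched, and the shares were 17.1%, 41.8% and 41.1%. In the 1967 of them whose largest exonic count was at least the median of the 756 genes (278.5 reads), the share wholly covered was 9.52%. A matched M21 last exon was found for 695 of the 756 genes. Its length minus that of the deposited one had a median of 1784 bp (quartiles 669.5 and 3357 bp). In 70 of them the difference was at most 10 bp, and in some, such as Cyp51, the M21 exon was shorter. The median was 2 bp in the other expressed genes. Of 750 coding genes among the 756, the deposited model had no 3′ UTR at all in 56 (7.47%), against 117 of 9065 (1.29%) of the others. These shares are descriptions of regions chosen by their reads, and no test was run on them.

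The sequence before the deposited ends differed from that before the M21 ends in how often it held a cleavage signal. The DNA hexamers AATAAA and ATTAAA were searched in the 50 bases before each end, in the sense sequence of M21 transcripts. The genes were those whose M21 end lies at least 500 bp farther on. At the deposited end of such genes among the 756, 197 of 549 (35.9%) had either hexamer, with AATAAA in 23.9% and ATTAAA in 14%. At the M21 end of the same genes it was 469 of 550 (85.3%). The other expressed genes gave 49.4% of 1356 at the deposited end where the M21 end lay as far on, and 85.0% of 5062 where both ends were within 10 bp. Among the 756 genes, the 66 with both ends within 10 bp had either hexamer at the deposited end in 39 (59.1%). On the opposite strand the hexamers stood in 9.29% of the deposited ends of the 549 genes. A run of 6 A in the 20 bases after the deposited end was found in 77 of 550 (14%), against 9.65% of 1358 other genes with a longer M21 end.

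**Figure D1:**
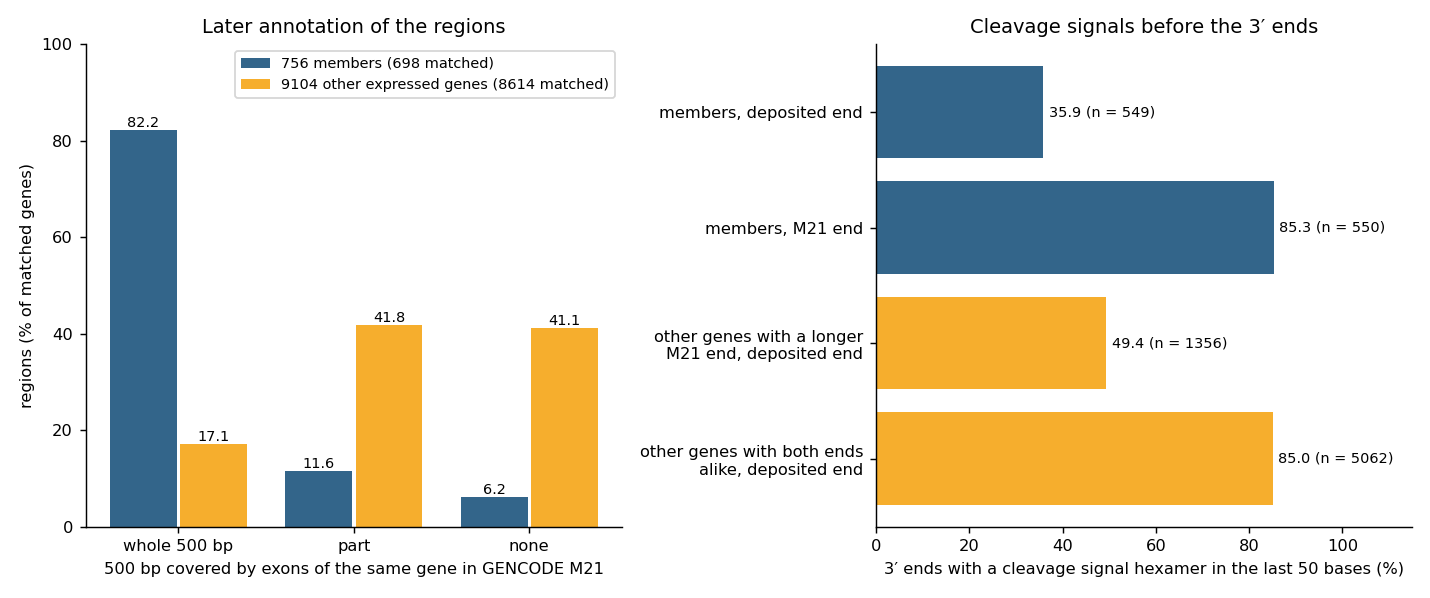
The left bars give the share of matched genes (y axis, %) whose 500 bp lies wholly, partly or not at all in exons of the same gene in GENCODE M21, for the 698 matched members and 8614 other expressed genes. The right bars give the share of 3′ ends (x axis, %) with AATAAA or ATTAAA in the last 50 bases: 35.9% at the deposited ends of the members and 85.3% at their M21 ends.

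The ends of 5 genes show the difference, for genes described further on: the first line of each pair is the last 30 bases before the deposited end, except that the Nefl line holds its hexamer and runs on past that end, and the second holds the last hexamer before the M21 end. Capitals mark AATAAA or ATTAAA, and the sequences are M21 transcripts, 5′ to 3′.
Nr4a3 deposited end: aagctcttccttgacaccctgcctttctga
Nr4a3 M21 end: gattaaATTAAAttacattttaccaatggc
Insr deposited end: cttaccctgccaaggtcaaacccttcctaa
Insr M21 end: taaaatttggAATAAAttatcttgagacta
Arl5b deposited end: accttagaatcttctcaacatgttacagct
Arl5b M21 end: ttgtcatAATAAAtactttttcagtatgaa
Lass6 deposited end: aaaactggtaaaactaaatgattactgatt
Lass6 M21 end: ctttcatAATAAAgataaacattaagagta
Nefl deposited end: aataatAATAAAaaaaaaaccacacacaca
Nefl M21 end: tgccatAATAAAatattgaaaaaaaatcta
In GRCm38 the deposited-end windows lie at chr4:48083323-48083352 (plus strand), chr8:3155669-3155698 (minus), chr2:15079162-15079191 (plus), chr2:69111261-69111290 (plus) and chr14:68087727-68087756 (plus), in the order shown. The M21-end windows lie at chr4:48086418-48086447, chr8:3150922-3150951, chr2:15082427-15082456, chr2:69114253-69114282 and chr14:68089059-68089088, on the same strands. The deposited models of Nr4a3 and Insr had 0 bases of 3′ UTR, so their windows end with the coding sequence. Nefl had AATAAA 7 bases before its deposited end and another 25 bases before its M21 end, 1350 bp farther on, and the other four had neither hexamer in the 50 bases before the deposited end.

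The downstream regions were read almost as densely as the exons of the same genes, a description of regions chosen by those reads. Per library a region had a median of 26, 28 and 30 reads at 0, 1 and 6 h. The median ratio of downstream reads per base to exonic reads per base was 0.764 at 0 h (quartiles 0.518 and 1.08), 0.779 at 1 h and 0.805 at 6 h. Against the last exon alone it was 0.885, 0.835 and 0.870. At 0 h 234 regions were at or above the exonic density, 514 lay between 0.1 and 1, and 8 were under 0.1. In other expressed genes the median ratio was 0.00837, 0 and 0. Across the 756 genes, downstream and exonic reads per base had a Spearman rho of 0.582 at 0 h, 0.555 at 1 h and 0.597 at 6 h. Both counts of a gene come from 1 library, so this is a description.

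The regions with the most downstream reads included some with fewer reads than the exons and some with more, and the source of the reads was not tested. Tmem107, which encodes a membrane protein of the ciliary transition zone, had 4107, 6078 and 4235 downstream reads at 0, 1 and 6 h against 18, 12 and 7 exonic reads. Its region (chromosome 11, 68886795 to 68887294, mm9, plus strand) had 0 reads across the gene's end. M21 places Snord118, the gene of the small nucleolar RNA U8, in it, and the reads of the 2 cannot be told apart. Cct6a, a subunit of the chaperonin TRiC, had 357, 537 and 494 downstream reads, 309, 405 and 351 exonic reads and 3 reads across its end, and M21 places the small nucleolar RNA gene Snora15 there. The same held for Tmem38b (n-R5s185, a 5S ribosomal RNA gene) and G3bp (current symbol G3bp1; the microRNA gene Mir7652), the remaining regions of the 4 with a small RNA gene.

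Baz1a, a subunit of chromatin remodelling complexes, had 208, 431 and 544 downstream reads (chromosome 12, 55993476 to 55993975, minus strand) but 3, 2 and 32 exonic reads. It had 0 reads across its end, and M21 ends the gene where the deposited model does. Basp1, a membrane protein of growing axons, had 460, 488 and 677 downstream reads (chromosome 15, 25293484 to 25293983, minus strand), 117, 127 and 98 exonic reads and 249 reads across its end. Its deposited model is 1 exon with no 3′ UTR. Ndfip1, an adaptor of Nedd4-family ubiquitin ligases, had 462, 527 and 580 downstream and 864, 1074 and 1123 exonic reads. Dpysl3, which encodes a collapsin response mediator protein, had 479, 577 and 495 and 1985, 2276 and 1956. The predicted gene LOC100042862 had 359, 309 and 310 downstream and 1871, 1532 and 1574 exonic reads. Atp1b1, the sodium pump subunit, had 216, 244 and 302 downstream and 3102, 3453 and 4919 exonic reads. In these last 4 genes the exons held more reads than the region in every library.

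**Figure D2:**
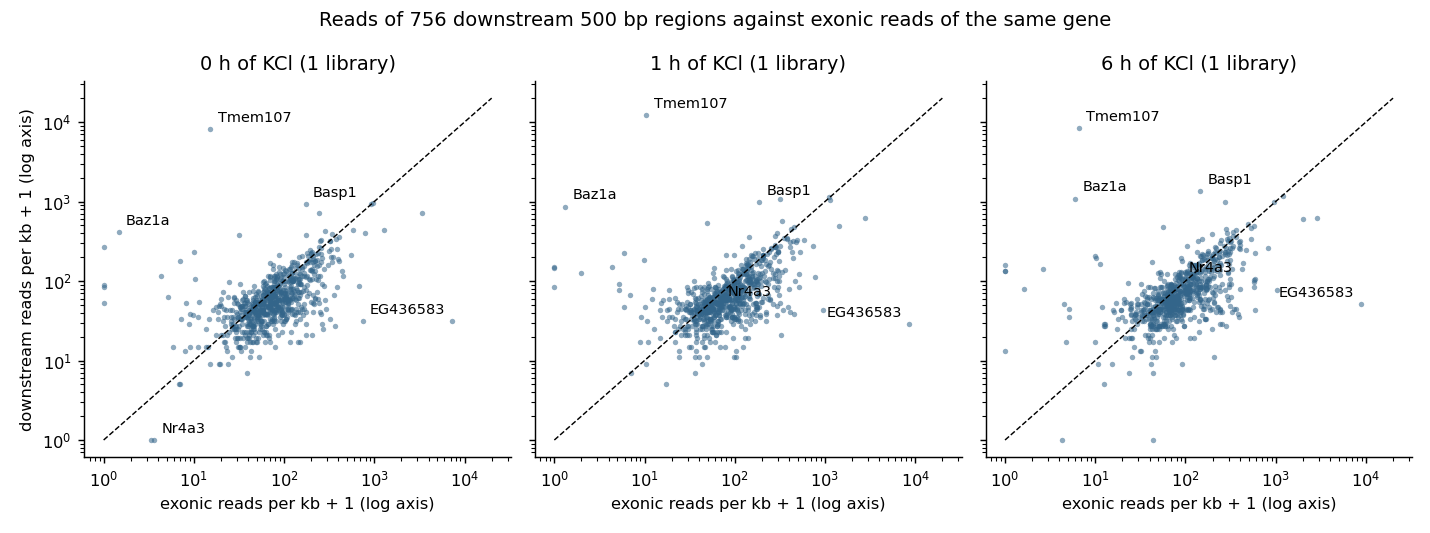
Each of the 756 points is 1 region, with downstream reads per kb (y axis) against exonic reads per kb of the same gene (x axis), 1 added to both, on log axes, in 1 panel for each time, and the dashed line marks equal density. Most points follow the line at every time, while Tmem107 and Baz1a lie far above it, and Nr4a3 moves from 0 downstream reads at 0 h to the line at 1 and 6 h.

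The authors' coverage corrects exons for the part that can be mapped uniquely, and 3 of the 10 highest ratios at 0 h were near or under 1 by it. Hnrpk (Hnrnpk), an RNA-binding protein gene, had 187, 266 and 236 downstream and 61, 95 and 109 exonic reads, a ratio per base of 12.1 at 0 h. In that coverage it was 0.843. For the ubiquitin-conjugating enzyme gene Ube2h it was 28.9 by counts and 1.13 by that coverage, and for Hnrpa1 (Hnrnpa1) 14.9 and 0.238. The other 7 stayed at 4.23 or higher: Baz1a (669), Tmem107 (559.9), LOC100043221 (24.3), Tomm20 (17.9), Tmem38b (10.8), LOC668661 (4.73) and Basp1 (4.23). Rpl5, a ribosomal protein gene, had 44, 62 and 67 downstream and 0, 1 and 0 exonic reads. In the authors' coverage its ratio was 0.0287, 0.0280 and 0.0766 at 0, 1 and 6 h, so there the exons were denser than the region. At the other end, Gap43, a growth cone protein gene, had 15, 21 and 38 downstream and 975, 1237 and 1367 exonic reads, and a ratio of 0.0403 at 0 h.

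Reads that cross the annotated end join the region to the exon, but few are possible per gene, so a count of 0 does not show that the region is separate. They are counted in neither the exons nor the region. Over the 3 libraries 547 of the 756 genes (72.4%) had at least 1 such read, 4705 in all. A read of 35 bp can cross the end in 34 positions and lie inside the region in 466. Per position, reads across the end had a median of 0.445 of the downstream level (quartiles 0 and 1.00), and 357 genes reached 0.5. Of the genes wholly covered in M21, 73.5% had a crossing read, of those with no M21 exon in the region 60.5%.

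The first comparison asked how downstream reads differed after 1 h of KCl, scaled by the exonic reads of all genes (TMM factors). A region was called when its ratio was at least 2-fold, its exact 95% interval excluded 1 and 1 of the libraries had 20 downstream reads. Since regions entered through the same counts, these calls are given as a description. Of 658 regions compared, 28 were higher and 39 lower. Over all 716 genes with enough downstream reads, most of them these same genes, 4.19% were higher and 5.73% lower. The median log2 ratio was 0.00 (quartiles -0.40 and 0.33). Higher regions made up 41.8% of the calls, and 69.2% when the libraries were scaled by uniquely mapped reads, which moved the median to 0.23.

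The leading higher regions at 1 h included 1 gene of the list of early transcription factors. Nr4a3, a nuclear receptor of the immediate early class, had 0, 26 and 52 downstream reads at 0, 1 and 6 h (chromosome 4, 48096225 to 48096724, plus strand) and 5, 128 and 168 exonic reads. Its region was at least 7.73-fold higher at 1 h and at least 16.4-fold higher at 6 h, against a floor of 3 reads, and the exact intervals, which add the counting error of both libraries, had lower bounds of 5.85 and 12.9. LOC100042498, listed now as Mir22hg, the host gene of miR-22, had 2, 33 and 32 downstream reads. At 1 h this was a 14.7-fold (interval 3.76 to 127) higher count, while its exons had 2, 2 and 12 reads. Arl5b, a small GTPase gene, had 7, 39 and 30 and was 4.97-fold (2.20 to 13.2) higher, with 106, 314 and 286 exonic reads. The predicted gene LOC668604 had 0, 28 and 6 and was at least 8.32-fold higher at 1 h by the same floor (lower bound of the exact interval 6.33), with 1, 42 and 0 exonic reads. In 3 of these 4 the exonic reads were also higher at 1 h.

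Cyp51, a demethylase of sterol synthesis, had 14, 50 and 22 downstream reads and was 3.19-fold (1.73 to 6.24) higher at 1 h, with 571, 1279 and 1593 exonic reads. At 6 h its region was back near the 0 h count while the exons were at their highest. Crebzf, a bZIP factor gene, had 3, 24 and 13 and was 7.13-fold (2.17 to 37) higher, and Smyd5, which encodes a SET domain protein, had 6, 27 and 17 and was 4.01-fold (1.62 to 11.9) higher. The ratio of Baz1a was 1.85 (1.56 to 2.19) at 1 h, under the 2-fold rule, and 2.47 (2.10 to 2.92) at 6 h.

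The 5 lower regions named at 1 h were those of Mtap1b, Clstn1, EG434128, Insr and Sox2. Mtap1b (Map1b), a microtubule-associated protein gene, had 203, 96 and 168 downstream reads and was 2.37-fold (1.85 to 3.06) lower, with 6902, 3921 and 4662 exonic reads. Clstn1, the gene of calsyntenin 1, had 127, 61 and 67 and was 2.33-fold (1.71 to 3.22) lower, and EG434128 (Pnmal2) had 80, 36 and 23 and was 2.49-fold (1.66 to 3.80) lower. In these 3 the exonic reads were also fewer at 1 h than at 0 h (EG434128 had 178, 101 and 83, Clstn1 1090, 632 and 603). Insr, the insulin receptor gene, had 32, 8 and 13 (chromosome 8, 3155169 to 3155668, minus strand) and was 4.49-fold (2.02 to 11.3) lower. Sox2, a transcription factor of neural progenitors and glia, had 20, 5 and 4 and was 4.49-fold (1.63 to 15.3) lower. Their exonic reads were 225, 219 and 223 and 236, 239 and 223, nearly level over the 3 times.

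After 6 h 95 regions were higher and 42 lower of 690 compared. Over all 745 genes with enough reads, again mostly these same genes, the shares were 13.3% and 6.04%. The median log2 ratio was 0.22 (quartiles -0.28 and 0.64), and 0.12 and 0.37 with scaling by total exonic and by mapped reads. Higher regions made up 69.3% of the calls, 62.0% and 81.7% under those 2 scalings. At both times 7 regions were higher, among 592 compared at both, and 14 lower, and both comparisons use the same 0 h library.

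The regions that led at 6 h included Dusp4, of the list of early effectors, and Sstr2 and Kcns2, of the list of late effectors. Dusp4, a MAP kinase phosphatase gene, had 4, 11 and 49 downstream reads (chromosome 8, 35882949 to 35883448, plus strand), 11.6-fold (4.25 to 44.2) higher, with 34, 87 and 274 exonic reads. Sstr2, a somatostatin receptor gene, had 2, 7 and 33, 15.6-fold (3.99 to 134) higher, with 7, 37 and 127 exonic reads. Kcns2, a modulatory potassium channel subunit gene, had 7, 9 and 52, 7.02-fold (3.18 to 18.3) higher, with 55, 60 and 328. For all 3 the 6 h library was the highest in both the region and the exons. Kcnk9, a two-pore potassium channel gene, had 12, 18 and 73, 5.75-fold (3.10 to 11.6) higher. Slc7a1, a cationic amino acid transporter gene, had 6, 10 and 42, 6.62-fold (2.80 to 19.1) higher, and the receptor gene Gpr26 had 53, 57 and 209, 3.73-fold (2.75 to 5.14) higher. Mir22hg was 15.1-fold (3.86 to 130) higher.

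Of the 5 lower regions named at 6 h, EG434128 was 3.68-fold (2.29 to 6.13) lower. Bbs1, a gene of the ciliary BBSome, had 25, 17 and 4 downstream reads and was 6.61-fold (2.28 to 26.1) lower. Nvl, an AAA-type ATPase gene, had 24, 13 and 4 and was 6.34-fold (2.18 to 25.2) lower. Panx2, which encodes a pannexin channel, had 20, 7 and 3 and was 7.05-fold (2.09 to 37) lower. Wdr42a (Dcaf8) had 26, 21 and 5 and was 5.50-fold (2.08 to 18.3) lower. The counts at 6 h were 3 to 5 reads in these last 4, so the sizes are loosely fixed.

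Exonic counts of the same genes were not used by the rule. Exonic reads were at least 2-fold higher at 1 h in 7 of 736 genes and lower in 2, against 1.58% and 1.43% of all 10093 genes with 20 exonic reads. At 6 h 47 of 735 (6.39%) were higher and 9 (1.22%) lower, against 4.92% and 5.42% of 10095 genes. A gene whose region passed the minimum only at 6 h tends to be one with more reads at 6 h, so these counts are not independent of how the regions were chosen. With uniquely mapped reads as the scale 11 genes were higher and 0 lower at 1 h, and with DESeq2 size factors 8 and 1. At 6 h total exonic reads gave 43 higher and 19 lower. The median log2 ratio was 0.00 at 1 h and 0.13 at 6 h, against 0.01 and 0.00 for all genes.

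The sides of region and exon were tallied as a description, since the downstream counts also chose the regions. Of 93 regions called higher at 6 h in genes with enough exonic reads, 91 had an exonic ratio above 1 and 35 were called in the exons too. Of the 41 lower, 32 had an exonic ratio below 1 and 2 were called. At 1 h the counts were 23 of 26 higher and 33 of 38 lower regions on the same side, with 4 and 0 called in the exons. No region and its exons were called in opposite directions in these genes. Among all 735 of the chosen genes compared in exonic reads at 6 h, the median log2 ratio was 0.13. Exonic ratios above 1 were thus the commoner side at 6 h. Over the 673 genes compared at 6 h the 2 log2 ratios had a Pearson r of 0.704 and a Spearman rho of 0.659, and over 641 at 1 h 0.598 and 0.415. Both ratios use the same 2 libraries.

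**Figure D3:**
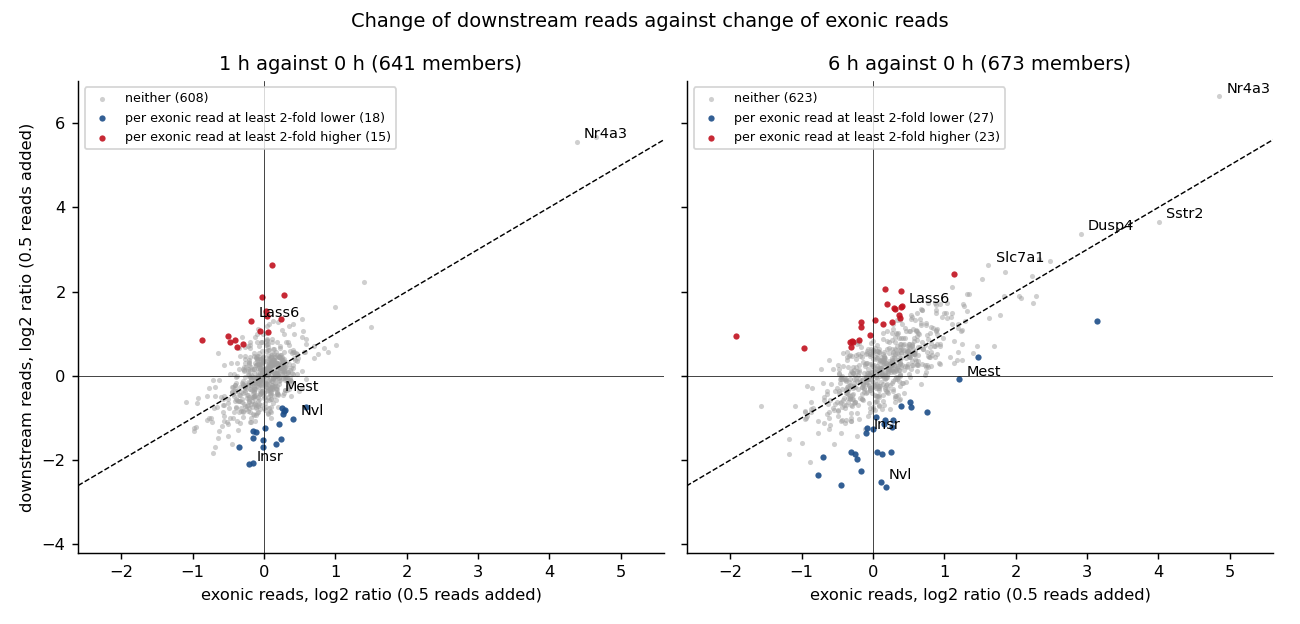
Each point is a gene with at least 20 reads in both region and exons, with the log2 ratio of downstream reads (y axis) against that of exonic reads (x axis), 0.5 reads added, at 1 h (641 genes) and 6 h (673 genes). Points near the dashed line kept their downstream reads per exonic read, and coloured points were at least 2-fold higher (red) or lower (blue) by that measure, with Insr and Nvl below the line and Lass6 above it.

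The second question was whether the share of reads downstream changed, measured as downstream reads per exonic read, which needs no scaling between libraries. Summed over the 756 regions without Tmem107, it was 12.2, 12.3 and 12.7 downstream reads per 100 exonic reads at 0, 1 and 6 h. The ratio to 0 h was 1.01 (interval 0.992 to 1.03) at 1 h and 1.05 (1.03 to 1.06) at 6 h. With Tmem107 the values were 13.9, 14.6 and 14.2. In other expressed genes, whose regions have under 20 reads by the same rule, they were 0.907, 0.794 and 0.757. The sums by M21 class, without Tmem107, were 12, 12.1 and 12.7 for the 574 regions wholly covered, 9.17, 9.46 and 8.56 for 80 partly covered and 12.1, 13.1 and 13.4 for 43 not covered.

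Gene by gene, 18 regions were at least 2-fold higher and 20 lower per exonic read at 1 h, and 25 higher and 29 lower at 6 h, of 753 compared. Over the 816 genes with enough downstream reads, most of them these same genes, the shares were 2.21% and 2.57% at 1 h and 3.19% and 3.80% at 6 h. The median log2 ratio was -0.02 and 0.03. Of 752 compared at both times, 7 were higher at both and 8 lower at both, and since both comparisons use the same 0 h library, nothing is read from this. Intervals here are exact conditional intervals of the ratio. The downstream counts in this ratio also chose the regions, so these calls are given as a description. Among the genes called per exonic read and described below, Insr, Sox2, Panx2, Nvl, Cul5, Slc25a22 and 6330407J23Rik reached 20 downstream reads at 0 h only. Crebzf, Smyd5, Crim1, 2500004C02Rik and Bag5 did so at 1 h only, and Tmem8, Prkab2, Rabggtb, Irs1 and Dgkh at 6 h only. Such a choice favours lower calls in the genes that entered at 0 h only. In the others it favours higher calls at the time when they entered.

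Higher at both times were Lass6, Smyd5, Tmem107, Snw1, Nefl, Zfp251 and Btrc. For Tmem107 the ratios, 2.22 (1.01 to 5.06) and 2.65 (1.06 to 7.52), rest on 18, 12 and 7 exonic reads. Its downstream reads cannot be told apart from those of Snord118. Lass6 (Cers6), a ceramide synthase gene, had 22, 62 and 74 downstream reads (chromosome 2, 68949348 to 68949847, plus strand) and 479, 475 and 665 exonic reads. That is 4.59, 13.1 and 11.1 per 100 exonic reads, 2.84-fold (1.69 to 4.93) higher at 1 h and 2.42-fold (1.46 to 4.16) at 6 h. Nefl, the neurofilament light chain gene, had 18, 52 and 53 downstream and 266, 352 and 362 exonic reads, 2.18-fold (1.22 to 4.06) and 2.16-fold (1.21 to 4.02) higher. Zfp251, a zinc finger gene, had 8, 25 and 37 and 144, 167 and 172, 2.69-fold (1.13 to 7.11) and 3.87-fold (1.70 to 9.91) higher. Smyd5 was 3.29-fold (1.22 to 10.3) and 3.15-fold (1.08 to 10.4) higher. The intervals of the level per 100 exonic reads at 0 h and 6 h did not overlap for Lass6 (2.85 to 7.04 and 8.63 to 14.2) or Zfp251 (2.35 to 11.2 and 14.7 to 30.8). They overlapped for Nefl (3.95 to 10.9 and 10.8 to 19.6) and Smyd5 (3.53 to 23.1 and 17.1 to 55.1). These genes were picked by the same counts, so nothing is read from the overlap or its absence.

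At 1 h Crebzf was 6.59-fold (1.95 to 34.6) higher per exonic read, with 187, 227 and 238 exonic reads. Crim1, a transmembrane protein gene, had 5, 22 and 18 downstream and 89, 98 and 149 exonic reads and was 4.0-fold (1.39 to 14) higher. Ptprg, a receptor tyrosine phosphatase gene, had 35, 63 and 54 and 301, 259 and 238 and was 2.09-fold (1.31 to 3.37) higher. LOC100039094 (3.37-fold, 1.59 to 7.20) has a second gene of the files, 2900093B09Rik, in its region. 2500004C02Rik had 8, 26 and 8 downstream and 12, 8 and 5 exonic reads and was 4.88-fold (1.27 to 19.1) higher.

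At 6 h Tmem8 (Pgap6) had 12, 8 and 25 downstream and 44, 27 and 12 exonic reads, 7.64-fold (2.72 to 21.8) higher, but the gene Mrpl28 lies in its region on the same strand and its reads cannot be told apart. Prkab2, an AMPK subunit gene, had 13, 19 and 22 downstream and 188, 186 and 102 exonic reads, 3.12-fold (1.43 to 7.02) higher, with the exonic count lowest at 6 h. Rabggtb, a subunit of the enzyme that prenylates Rab proteins, had 11, 9 and 39 and 139, 151 and 169, 2.92-fold (1.40 to 6.54) higher. Cacna1b, the N-type calcium channel gene, had 30, 47 and 56 and 747, 665 and 632, 2.21-fold (1.37 to 3.61) higher, and the SNARE gene Sec22b had 36, 58 and 62 and 215, 260 and 184, 2.01-fold (1.25 to 3.27) higher. Basp1 was at 1.76 (1.30 to 2.38), under 2-fold.

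Lower at both times were Ube2w, Nvl, Sox2, Ptbp2, Slc25a22, Insr, Cul5 and Panx2. For Insr the values were 14.2, 3.65 and 5.83 downstream reads per 100 exonic reads, 3.89-fold (1.70 to 9.98) lower at 1 h and 2.44-fold (1.21 to 5.20) at 6 h. Sox2 was 4.05-fold (1.44 to 14) and 4.72-fold (1.55 to 19.3) lower. Panx2, with 69, 87 and 83 exonic reads, was 3.60-fold (1.36 to 10.6) and 8.02-fold (2.22 to 43.4) lower. Cul5, a cullin of ubiquitin ligases, had 30, 15 and 15 downstream and 163, 211 and 209 exonic reads, 2.59-fold (1.30 to 5.35) and 2.56-fold (1.28 to 5.30) lower. Slc25a22, a mitochondrial glutamate carrier gene, was 3.34-fold (1.34 to 9.44) lower at 1 h, and its region holds the gene Cend1.

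Nvl, with 109, 163 and 125 exonic reads, was 2.76-fold (1.28 to 6.16) lower at 1 h and 6.88-fold (2.25 to 28.0) at 6 h. Irs1, the insulin receptor substrate gene, had 13, 3 and 23 downstream and 159, 196 and 307 exonic reads and was 5.34-fold (1.43 to 29.6) lower at 1 h. At 6 h it stood at 0.916 (0.432 to 2.03) of the 0 h value. C330002I19Rik (Kidins220), a scaffold of neurotrophin signalling, had 26, 10 and 20 and 1800, 2392 and 2435 and was 3.46-fold (1.61 to 8.05) lower at 1 h. Ralgps1, a Ral exchange factor gene, had 50, 22 and 28 and 279, 290 and 189 and was 2.36-fold (1.36 to 4.21) lower.

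**Figure D4:**
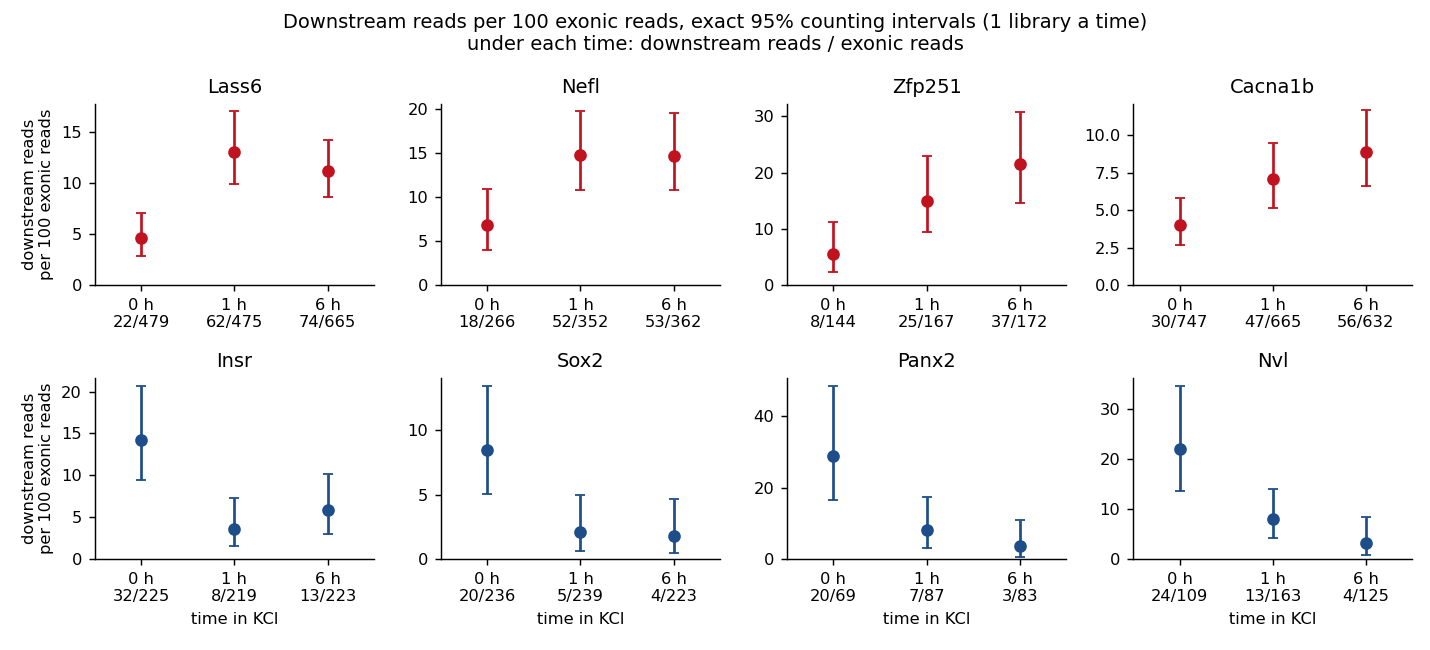
Each panel is 1 gene, with downstream reads per 100 exonic reads (y axis, from 0) at 0, 1 and 6 h of KCl (x axis); points are single libraries, bars are exact 95% counting intervals, and the numbers under each time are downstream and exonic reads. The upper 4 genes were higher at 6 h than at 0 h (Lass6 from 4.59 to 11.1) and the lower 4 were lower (Insr from 14.2 to 5.83).

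The lower regions at 6 h included Bag5, a cochaperone gene, with 12, 20 and 0 downstream and 74, 53 and 76 exonic reads, at least 4.11-fold lower per exonic read against the floor of 3 reads (bound of the exact interval 2.71). Acsl6, a long-chain acyl-CoA synthetase gene, had 32, 33 and 9 and 205, 247 and 237 and was 4.11-fold (1.86 to 10.0) lower. 6330407J23Rik (Soga3) had 31, 16 and 9 and 399, 396 and 439 and was 3.79-fold (1.73 to 9.15) lower. G3bp, a stress granule protein gene, had 21, 24 and 6 and 64, 75 and 81 and was 4.43-fold (1.59 to 14.1) lower. Mest, an imprinted gene with a hydrolase-like protein, had 51, 42 and 51 and 596, 764 and 1457 and was 2.44-fold (1.60 to 3.72) lower, so the exonic reads were higher at 6 h while the downstream count was the same at 0 and 6 h.

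Among the 47 genes with exonic reads at least 2-fold higher at 6 h, 24 reached 20 downstream reads at 6 h only, so a higher count at 6 h was part of how they were chosen. Per exonic read 1 of the 47 was called higher and 3 lower. The one higher, named after its values were seen, was Dgkh, a diacylglycerol kinase gene, with 7 and 42 downstream and 87 and 203 exonic reads at 0 and 6 h. The 3 lower were Mest, Baz1a and Ankrd50, the last named after its values were seen, with 26 and 38 downstream and 110 and 325 exonic reads.

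Of 9844 expressed genes without overlap, 740 (7.52%) had such a region, and the lists of activity genes are given beside that share. Of 33 early transcription factors in the files, 30 of them with 20 exonic reads, 1 was among the 756, Nr4a3, and 22 of 30 compared had exonic reads at least 2-fold higher at 1 h. Fos had 0, 4 and 0 downstream reads with 21, 2901 and 877 exonic reads. Summed over the list there were 50, 105 and 92 downstream and 1238, 10704 and 4721 exonic reads, that is 4.04, 0.981 and 1.95 per 100 exonic reads. Of 32 early effectors and feedback genes, 26 with 20 exonic reads, 2 were among the 756: Dusp4 and Spry2, an inhibitor of receptor tyrosine kinase signalling, with 26, 24 and 41 downstream and 82, 134 and 199 exonic reads. Of 24 late effectors, 19 with 20 exonic reads, 3 were: Sstr2, Kcns2 and the growth factor gene Igf1, with 22, 27 and 88 downstream and 68, 94 and 298 exonic reads. Igf1 stood at 32.4, 28.7 and 29.5 downstream reads per 100 exonic reads.

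Of 28 genes of 3′ end formation and transcription termination compared in exonic reads, 0 were called at 1 h, and at 6 h 0 were higher and 2 lower, beside 5.42% of all genes lower, with median log2 ratios of -0.07 and -0.16. The 2 were Pcf11, a termination factor that binds the polymerase, with 116, 162 and 60 exonic reads (2.04-fold lower, interval 1.48 to 2.84), and the cleavage factor gene Cpsf4, with 47, 55 and 22 (2.26-fold lower, 1.33 to 3.94). Others had intervals off 1 without reaching 2-fold, among them, picked after their values were seen, Cpsf3 at 0.502 (0.396 to 0.633) and the poly(A) polymerase gene Papola at 1.70 (1.49 to 1.95). Of 29 genes in the list 4 were among the 756. Cpsf6, a subunit of cleavage factor I, had 20, 32 and 57 downstream and 400, 526 and 617 exonic reads. Fip1l1, a subunit of the polyadenylation complex, had 21, 7 and 5 and 126, 88 and 72. Pcf11 had 10, 20 and 2 downstream reads. Pabpn1, the nuclear poly(A)-binding protein gene, had 20, 32 and 41 and 82, 99 and 133. Of 62 replication-dependent histone genes, 15 had 20 exonic reads and 0 were among the 756, a number too small to set against the share of all expressed genes, and the largest downstream count was 14, in Hist2h4.

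The introns of the same genes, which the rule did not use, differed in another way. At 1 h 25 of 672 genes were at least 2-fold higher and 124 (18.5%) lower in intronic reads, with a median log2 ratio of -0.54. Over all 8143 genes compared, 2.59% were higher and 27.2% lower, with a median of -0.66. At 6 h 32 of 677 were higher and 34 lower (3.08% and 10.5% of 8236 genes), with a median of -0.05 against -0.19. Summed without Tmem107 there were 128.7, 93.6 and 109.1 intronic reads per 100 exonic reads at 0, 1 and 6 h, and in other expressed genes 83.5, 62.2 and 72.1. The downstream sum per 100 exonic reads over the same genes was 12.2 at 0 h and 12.3 at 1 h. The log2 ratios of downstream and intronic reads had a Spearman rho of 0.127 over 582 genes at 1 h and 0.477 over 627 at 6 h.

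Reads on the other strand and before the genes were few. The 756 regions held 5359, 2346 and 2429 antisense reads, of which EG216185 (Gm4799) had 5003, 2088 and 2138, and 672, 706 and 690 regions had 0. The 500 bp before the genes held 4644, 3926 and 6419 sense reads, of which Ghitm, a mitochondrial inner membrane protein gene, had 2051, 1342 and 3436 at 0, 1 and 6 h. The median upstream count was 0 at each time.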

How the data were processed

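Stranded, ribosome-depleted total RNA was sequenced with 1 library each at 0, 1 and 6 h of KCl. Per the submitters' processing notes the build was mm9, and per the file headers and the deposited counting logs the 35 bp reads were kept where they mapped uniquely with at most 3 mismatches, repeated reads included. No aligner is named in the sources used here. The deposited counts are whole reads the authors counted per gene and strand, with separate counts for introns, exons and 500 bp flanks. The deposited coverage signal is read bases per base, scaled by the authors to 10000000 uniquely mapped reads, with exons corrected for mappability.

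From the counts, ratios to 0 h were scaled by TMM factors of exonic counts (edgeR 4.0.16, R 4.3.3) with exact binomial 95% intervals (scipy 1.17.1). Downstream per exonic ratios took exact conditional intervals, and summed ratios a log-normal approximation. No count model was fitted, since 1 library a time leaves no residual spread. The log2 ratios had 0.5 reads added. Calls needed a 2-fold ratio and an interval that excludes 1. For downstream, exonic and intronic reads, 1 of the 2 libraries also needed 20 reads. Per exonic read, 20 downstream reads in any of the 3 libraries were enough. The scripts were tested on simulated data. Depth was 2189394 to 2480579 exonic reads a library, and a count of 0 allows up to 3 reads. Of 25562 gene identifiers 22521 had a current symbol in the RefSeq table, and sequences are from GENCODE M21 transcripts.

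Named were the 8 regions with the most reads and list members. For each time the 8 higher and 5 lower regions in downstream reads were named, and the 8 higher and 8 lower per exonic read. For these the interval bound nearest to 1 was ranked by its distance from 1, the farthest first. Regions, lists and tests were chosen with earlier results of these data known. Scaling by total exonic reads, mapped reads and DESeq2 1.42.0 size factors, other minimums, folds, interval levels and neighbour filters, and the authors' coverage were tried.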

Additional observations from a re-analysis of the deposited data

How the results depend on the processing

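No paired analysis was possible because each time has 1 library, and for the same reason no replicate could be left out. Of 145 counts and medians recomputed under other settings 101 stayed within the limits set for a change and 44 moved. Of 252 values of named regions 233 kept their direction and call, 16 lost the call, 3 gained one and 0 reversed. The main counts were 67 and 137 regions called in downstream reads at 1 and 6 h, 9 and 56 in exonic reads and 38 and 54 per exonic read. Scaling by mapped reads moved the median log2 ratio to 0.23 and 0.37 downstream and 0.24 and 0.28 in exons at 1 and 6 h, and scaling by total exonic reads to 0.12 downstream and 0.031 in exons at 6 h. A minimum of 10 reads gave 134 and 235 downstream calls, 31 and 108 exonic and 87 and 118 per exonic read, and a minimum of 50 reads 13 and 36, 2 and 17, and 6 and 8. The exonic median was then 0.076 at 6 h with 10 reads, and 0.038 at 1 h and 0.21 at 6 h with 50. A 99% interval gave 38 downstream calls at 1 h and 17 and 24 per exonic read. A 3-fold rule gave 17 and 53, 3 and 19, and 13 and 18, and a 1.5-fold rule 46 and 176 exonic calls. Regions wholly covered in M21, a setting chosen after seeing the data, gave 44 downstream calls at 1 h and 23 and 33 per exonic read. The median density ratio was 0.641, 0.635 and 0.664 at 0, 1 and 6 h with a minimum of 10, 0.915, 0.911 and 0.989 with 50, and 0.679, 0.690 and 0.727 in the authors' coverage. By fold alone that coverage gave 57 regions higher and 21 lower at 1 h and 119 and 24 at 6 h. Fewer or more regions enter under the other minimums and the M21 setting, and for the others the cause was not tested. The median region had 26, 28 and 30 reads, which limits the precision of single ratios.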
